A study of Mus musculus with 8 samples.

Results

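Axon guidance ligands and receptors of the mouse aorta were taken as the genes whose symbol belongs to the semaphorin (classes 3 to 7), plexin, neuropilin, ephrin, Eph receptor, Slit, Robo, netrin or UNC5 families and whose estimated counts summed to 40 or more over 8 libraries. Of the 22063 genes listed, 67 had such a symbol and 60 reached the count minimum. The 7 that did not were Epha5, Epha6, Epha8, Epha10, Slit1, Robo3 and Ntn5. The RNA came from aortas of male C57BL/6J mice fed chow, which were 3 weeks old at the start. All of them, controls included, drank beta-aminopropionitrile (BAPN), a blocker of collagen and elastin crosslinking, at 1 g per kg per day for 3 weeks. The vehicle group (4 libraries) received saline by gavage, and the colchicine group (4 libraries) received colchicine, a drug that binds tubulin, at 200 µg per kg per day. No library from a mouse without BAPN was analysed here. The labels do not say which aortas dissected or whether each library came from a separate animal, so p-values measure the spread between these libraries. In the deposited annotation 58 of the 60 genes carried the KEGG term for axon guidance, and 33 carried the gene ontology term of that name.

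Axon guidance proteins were named for steering growing nerve fibres, and many of them also act in blood vessels. Semaphorins bind plexins, with neuropilins as co-receptors for most secreted class 3 members, and plexins act on small GTPases and on cell adhesion. Ephrins and Eph receptors sit on the membranes of neighbouring cells and signal in both directions. Slits are secreted and bind Robo receptors, and netrins bind UNC5 receptors, DCC and neogenin. In vessels, ephrin-B2 marks arteries and EphB4 veins, and class 3 semaphorins with plexin-D1 guide endothelial sprouts. Sema4a, Sema4d, Sema7a and netrin-1 are known to act on leukocytes.

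Colchicine aortas had more RNA of the secreted semaphorins Sema3a, Sema3b, Sema3c and Sema3d, of Sema5a, netrin-1, ephrin-A5 and of the receptors Unc5c and Epha4. They had less of Sema7a, Sema4a, Sema4b, Sema4d, Sema6b, neuropilin-2, plexin-C1, plexin-D1, ephrin-B1, Epha2 and Unc5b. Counts allowed a test for 57 of the 60 genes, of which 15 rose and 14 fell at an adjusted p under 0.05 (two-sided F-test of edgeR, adjusted after Benjamini and Hochberg over all 13431 tested genes). That was 50.9% of the tested members, where 34.4% of all tested genes passed. Rises made up 26.3% (17.4% of all genes) and falls 24.6% (17.0% of all genes). The median log2 change, colchicine minus vehicle, was -0.13 over the members and -0.03 over all genes. Changes of 1 or more on the log2 scale that passed were seen for 12 raised and 12 lowered members, 21.1% each, against 6.89% and 10.5% of all genes. In 27 of the 57 members (47.4%, against 39.1% of all genes) no vehicle library overlapped any colchicine library, 16 times with colchicine higher and 11 times lower. Of all genes 21.1% stood apart with colchicine higher and 17.9% with colchicine lower. Efnb3, Robo2 and Sema4f were left out by the low-count filter and are counted in none of these. DESeq2 called 17 raised and 17 lowered members, and Sema3f, Ntn4, Efna1, Sema4c and Unc5a were the ones it added. It also called more of all tested genes, 41.6% (2694 raised and 2887 lowered), against 34.4% with edgeR.

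**Figure D1:**
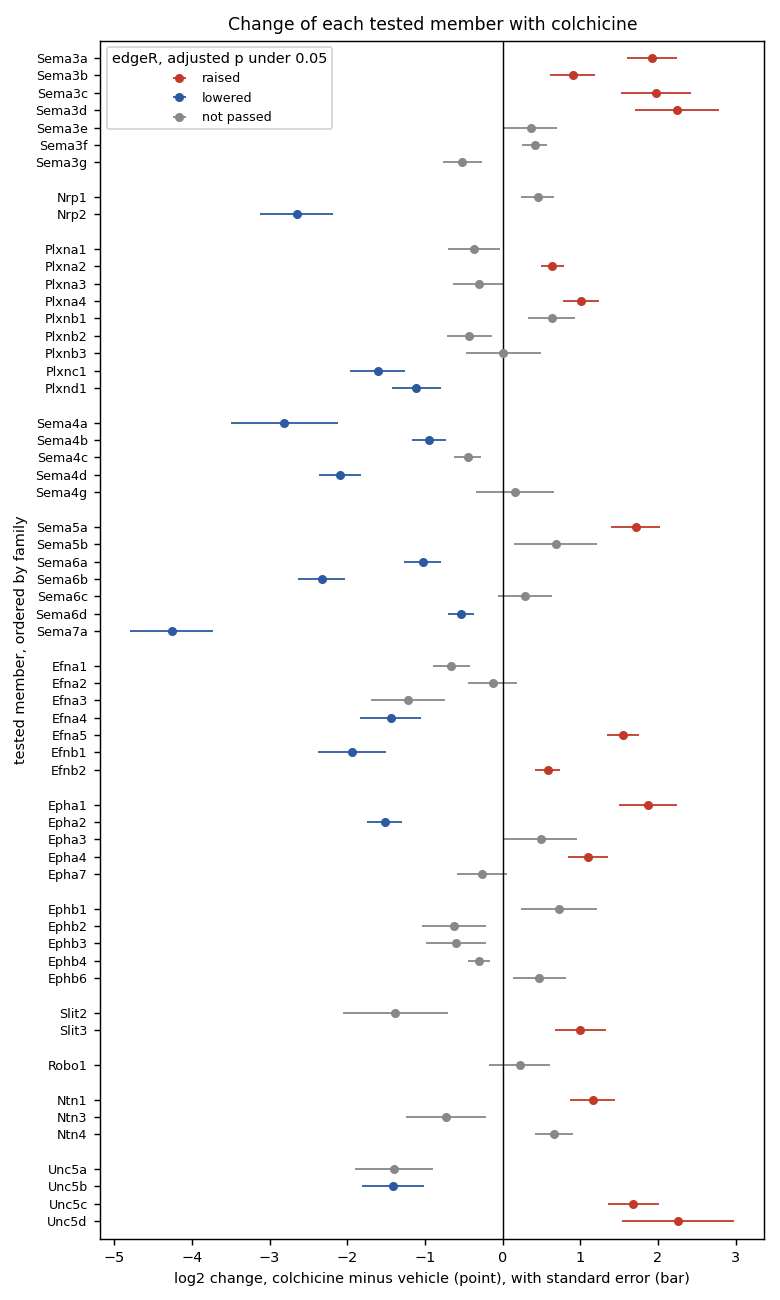
Log2 change of each of the 57 tested members (points; colchicine minus vehicle, 4 libraries each) with its standard error (bars), grouped by family and coloured by whether the member rose, fell or did not pass. Changes run from -4.26 for Sema7a to 2.26 for Unc5d, and 4 of 7 class 3 semaphorins rose while 3 of 5 tested class 4 semaphorins fell. Of all tested genes 17.4% rose and 17.0% fell.

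Libraries held 15427898 to 18460006 counts. The TMM factor, which scales the libraries to each other, was 0.762 in vehicle 1 and 0.987 to 1.08 in the others. After that scaling the floor of 3 counts stood at 0.158 to 0.22 counts per 1000000 counts (CPM), highest in vehicle 1. Vehicle 1 and vehicle 4 held 14.9% and 6.21% haemoglobin counts, and the other 6 libraries 0.0419% to 0.318%. Neutrophil markers summed to 4650 and 1680 TPM (a per-length measure of transcripts) in vehicle 1 and 4, and to 5.64 to 33.7 TPM in the other 6. Macrophage markers (7 of 10 fell) summed to 2230 to 7330 TPM in vehicle, highest in vehicle 2, and 908 to 1850 TPM in colchicine libraries. Smooth muscle markers (5 of 10 rose, 0 fell) summed to 4390, 6450, 17700 and 18200 TPM in vehicle 1 to 4 and 24900 to 33400 TPM in colchicine libraries. Endothelial markers (4 of 12 rose, 3 fell) summed to 623 to 1180 and 1220 to 1890 TPM, and fibroblast markers (2 of 10 rose, 0 fell) to 1960 to 6180 and 5410 to 6060 TPM. TPM share a fixed total, so TPM of other genes are lower in the haemoglobin-rich vehicle 1 and 4. On counts the median log2 change was -1.76 for macrophage, 1.18 for smooth muscle, -0.35 for endothelial and 0.22 for fibroblast markers. Falls and no rises were also seen among markers of neutrophils (3 of 4), B cells (3 of 3) and dendritic cells (6 of 7). The same held for red cells (5 of 6) and platelets (4 of 5). Among T cell markers 1 of 8 fell and 0 rose, where 17.0% of all genes fell. Red cell markers summed to 311000, 9610, 1410 and 165000 TPM in vehicle 1 to 4 and 3260 to 10900 TPM in colchicine libraries. In the same order, platelet markers summed to 887, 289, 148 and 1460 TPM in vehicle libraries. B cell markers summed to 27.4, 9.5, 7.58 and 32.4 TPM there. Among Schwann cell markers 1 of 9 rose and 1 fell, and of neuron (2 tested), adipocyte, mesothelial and cardiac muscle markers (6 tested each) 0 passed. No list had a marker at 0 in every library. The part of these cell types in the changes below was not tested, and in whole tissue fewer cells of a type and less RNA per cell cannot be told apart.

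Promoters are shown for the member with the largest fall and its plexin (Sema7a, Plxnc1) and for 3 raised members. Each had 1 start site in RefSeq, and the 250 bases before it touched no annotated exon. They are RefSeq sequences of build GRCm38.p6, 5′ to 3′ on the strand of the gene, from chr9:57939862-57940111 (plus strand), chr10:94944846-94945095 (minus), chr5:12382916-12383165 (plus), chr17:62881318-62881567 (minus) and chr6:42373269-42373518 (minus). Capitals mark GGGCGG or its reverse complement, the GC box bound by SP1 factors.
Sema7a: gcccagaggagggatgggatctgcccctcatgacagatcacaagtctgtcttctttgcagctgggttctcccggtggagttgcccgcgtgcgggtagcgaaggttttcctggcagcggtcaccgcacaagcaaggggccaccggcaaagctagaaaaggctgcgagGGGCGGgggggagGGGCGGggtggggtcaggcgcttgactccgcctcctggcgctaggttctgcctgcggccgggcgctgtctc
Plxnc1: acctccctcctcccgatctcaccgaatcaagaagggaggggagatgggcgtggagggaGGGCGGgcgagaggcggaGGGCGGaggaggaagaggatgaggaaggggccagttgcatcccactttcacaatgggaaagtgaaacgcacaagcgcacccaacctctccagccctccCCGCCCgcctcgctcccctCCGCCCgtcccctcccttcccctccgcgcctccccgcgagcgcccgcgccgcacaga
Sema3d: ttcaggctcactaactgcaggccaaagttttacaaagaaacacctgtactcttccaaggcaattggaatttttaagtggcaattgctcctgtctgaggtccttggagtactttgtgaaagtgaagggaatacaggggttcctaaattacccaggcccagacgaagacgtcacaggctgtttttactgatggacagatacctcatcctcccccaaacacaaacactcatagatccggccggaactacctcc
Efna5: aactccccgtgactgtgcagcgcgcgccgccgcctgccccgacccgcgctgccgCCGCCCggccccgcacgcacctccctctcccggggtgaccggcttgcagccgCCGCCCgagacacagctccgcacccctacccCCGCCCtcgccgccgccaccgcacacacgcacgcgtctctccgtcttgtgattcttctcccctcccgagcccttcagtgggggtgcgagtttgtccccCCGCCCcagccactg
Epha1: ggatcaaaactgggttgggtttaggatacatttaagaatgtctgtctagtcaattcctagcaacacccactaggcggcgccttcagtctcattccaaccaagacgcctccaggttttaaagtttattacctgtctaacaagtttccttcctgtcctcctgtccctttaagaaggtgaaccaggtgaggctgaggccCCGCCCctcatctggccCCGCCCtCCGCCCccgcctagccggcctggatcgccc
The GC box stood 2 times before Sema7a, 4 times before Plxnc1, 4 times before Efna5, 3 times before Epha1 and 0 times before Sema3d. The Sema3d window was also the poorest of the 5 in G and C (46.8%, with 4 CpG sites), against 54.4% and 9 sites for Epha1 and 74.8% and 32 for Efna5. Of the 60 members 52 had a promoter in the RefSeq table, and 38 of these (73.1%) held a GC box, against 59.0% of 10555 tested genes and 32.9% of all 27025 promoters. It was found for 8 of 11 raised and 10 of 13 lowered members. The other motifs, searched on both strands and none containing another, had no match in the 5 windows. The AP-1 motif, spelled TGANTCA, was in 0 raised and 1 lowered promoter (4.33% of tested genes, 6.87% of all promoters) and the 6 bases AGAACA, a part of the glucocorticoid receptor element, in 0 and 3 (10.5% and 16.2%). The E-box CACGTG was in 0 and 1 (8.35% and 6.05%). The TATA box, spelled TATAAA, was in 1 and 0 (6.42% and 13.0%), and the cyclic AMP response element TGACGTCA was in 0 and 1 (2.61% and 1.62%).

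**Figure D2:**
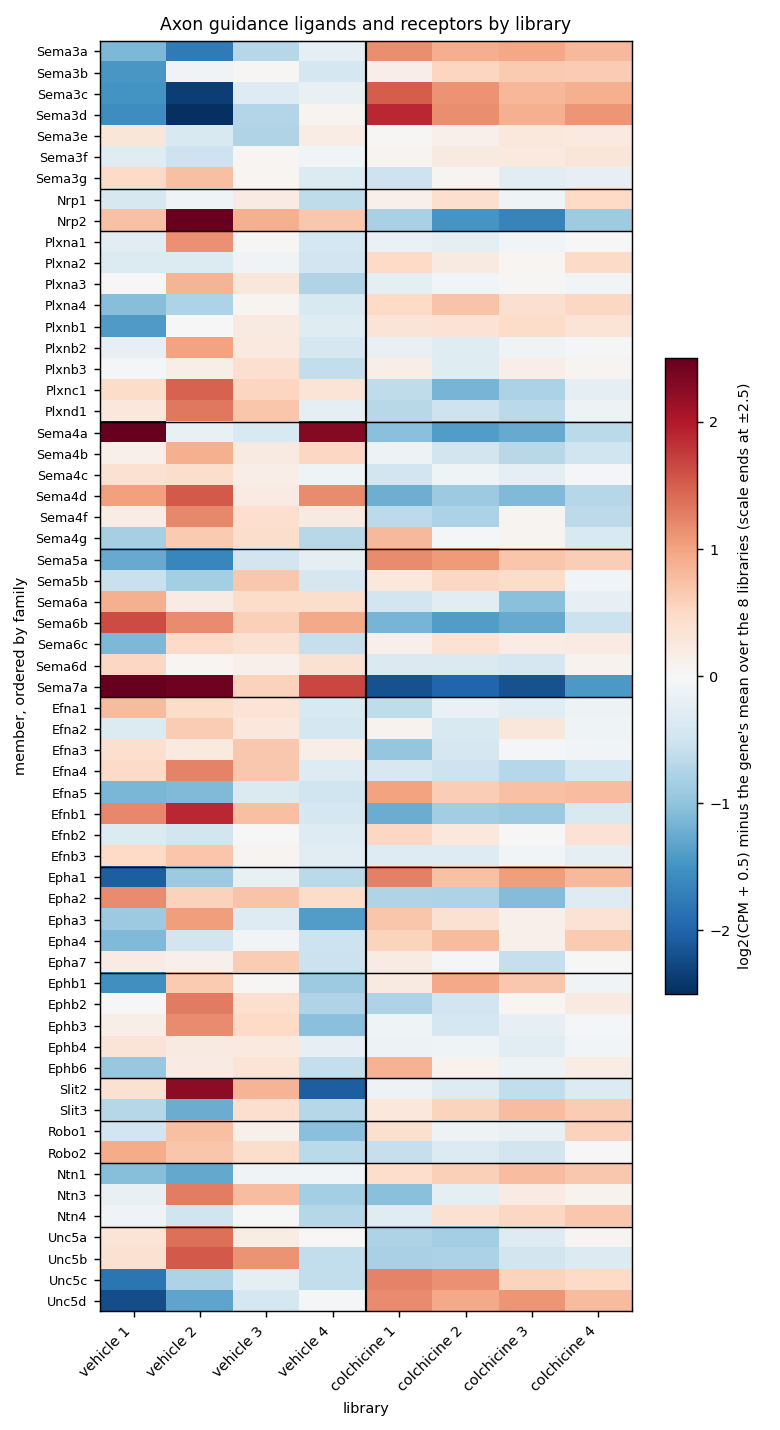
Log2(CPM + 0.5) of the 60 members in each of the 8 libraries, drawn as the difference from the gene's mean over the libraries and grouped by family. Of the 15 raised members 14 are lowest among vehicle libraries in vehicle 1 or 2, and all 14 lowered members are highest there.

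Class 3 semaphorins are secreted ligands, several of which are known to repel axons and to restrain vessel growth. They rose in 4 of 7 cases (57.1%, against 17.4% of all genes) and fell in 0. Their median log2 change was 0.90. Sema3a, the founding repellent, stood at 4.18, 2.52, 5.73 and 8.24 CPM in vehicle and 22.4, 18.7, 19.4 and 17.6 CPM in colchicine libraries, each in the order of replicates 1 to 4. Every colchicine library was above every vehicle library, and the log2 change was 1.92 ± 0.32 (standard error; adjusted p = 0.00575). Sema3c, needed for septation of the outflow tract of the heart, stood at 31.9, 17.4, 73 and 79.4 CPM in vehicle and 261, 199, 161 and 169 CPM in colchicine libraries. The groups did not overlap, vehicle 1 and 2 were lowest, and it rose (1.97 ± 0.45, adjusted p = 0.0124). Sema3d, a cue for endothelial cells, stood at 16.2, 6.53, 29 and 50.5 CPM in vehicle and 179, 109, 89.7 and 104 CPM in colchicine libraries (2.24 ± 0.54, adjusted p = 0.0152). Its vehicle libraries stood in the same order as those of Sema3c, and colchicine 1 was far above the other colchicine libraries.

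Sema3b, known as a tumour suppressor, had 32.1 ± 12.4 and 60.1 ± 8.84 CPM (SD, n = 4 each) in vehicle and colchicine libraries (0.90 ± 0.29, adjusted p = 0.0403). Sema3f, which signals through neuropilin-2, stood at 144, 123, 183 and 168 CPM in vehicle and 186, 207, 211 and 218 CPM in colchicine libraries. These groups did not overlap, but the difference did not pass (0.41 ± 0.16, adjusted p = 0.0674), though it did with DESeq2 (0.39, adjusted p = 0.0404) and on log2(TPM + 1) values (0.91, adjusted p = 0.0497). On log2(TPM + 1) values the median change of all genes was itself 0.35, against -0.03 on counts. Sema3e, the ligand of plexin-D1, had 1.77 ± 0.734 and 2.25 ± 0.215 CPM (0.36 ± 0.34, adjusted p = 0.427). Sema3g, an endothelial member, stood at 26.3, 32.3, 19.4 and 14.8 CPM against 13.1, 19.9, 15.3 and 16.3 CPM (-0.52 ± 0.25, adjusted p = 0.128). Its groups overlapped, and it was the single class 3 member with a change below 0. In GENCODE M21 (GRCm38) Sema3d, Sema3a, Sema3e and Sema3c lie within 5.35 Mb of chromosome 5 (12383385 to 17730268), and 3 of these 4 rose. Among the 3 other tested coding genes of that interval 2 rose and 1 fell. Sema3d did not pass without colchicine 1 (1.94, adjusted p = 0.0539). Sema3b did not pass without vehicle 4 or any 1 colchicine library (0.83 to 0.98, adjusted p of 0.0665 to 0.104), and Sema3g passed without vehicle 4 (-0.70, adjusted p = 0.0359).

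Of the neuropilins, co-receptors that class 3 semaphorins share with vascular endothelial growth factor, Nrp2 fell and Nrp1 did not pass. Nrp2, the neuropilin of veins and lymphatics and of some macrophages, stood at 48.3, 168, 53.7 and 46.5 CPM in vehicle and 16.2, 10.1, 8.71 and 15.3 CPM in colchicine libraries. Vehicle 2 was far above the other vehicle libraries, and each of these was above every colchicine library (-2.65 ± 0.47, adjusted p = 0.00636). Nrp1, the arterial neuropilin and a receptor of Sema3a, stood at 39.8, 48.6, 60.9 and 33.6 CPM against 57.2, 70.3, 48.4 and 74.7 CPM (0.45 ± 0.21, adjusted p = 0.122). Its groups overlapped, and it passed without vehicle 3 (0.59, adjusted p = 0.0444). Per length, Nrp1 stood at 10.9, 28.2, 38.3 and 16.3 TPM and Nrp2 at 7.37, 54.6, 19 and 12.5 TPM in vehicle 1 to 4. In colchicine libraries Nrp1 stood at 28.8 to 48.8 TPM and Nrp2 at 2.87 to 5.83 TPM, so that Nrp1 was the higher in every library but vehicle 2.

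Plexins, the signalling receptors of semaphorins, rose in 2 and fell in 2 of 9 cases (44.4%, where 34.4% of all tested genes passed). Plxna4, a receptor for Sema3a together with Nrp1, stood at 23.1, 28.5, 51.5 and 37.6 CPM in vehicle and 69.5, 80.5, 64.8 and 69.7 CPM in colchicine libraries. The groups did not overlap (1.01 ± 0.23, adjusted p = 0.0129). Plxna2, another class A plexin, stood at 34.7 to 45.7 CPM in vehicle and 50.3 to 69.2 CPM in colchicine libraries (0.64 ± 0.15, adjusted p = 0.0125). Plxna1 stood at 76.1, 206, 94.3 and 68.4 CPM against 82.6, 79.5, 88.6 and 92.9 CPM (-0.37 ± 0.33, adjusted p = 0.39), with vehicle 2 far above every other library. Plxna3 had 7.39 ± 3.46 and 5.97 ± 0.511 CPM (-0.31 ± 0.33, adjusted p = 0.474). Plxnd1, the endothelial plexin that binds Sema3e, stood at 140, 288, 188 and 97.2 CPM in vehicle and 71.6, 80.3, 72 and 106 CPM in colchicine libraries. It fell (-1.11 ± 0.31, adjusted p = 0.0256), although colchicine 4 lay above vehicle 4.

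Plxnc1, which binds Sema7a and is found on leukocytes among other cells, stood at 6.38, 13.3, 6.73 and 5.84 CPM in vehicle and 2.72, 1.72, 2.39 and 3.73 CPM in colchicine libraries (-1.61 ± 0.35, adjusted p = 0.0107). The groups did not overlap, and vehicle 2 was the highest library. Of the class B plexins, receptors of class 4 semaphorins, 0 of 3 passed with edgeR, DESeq2 or limma-voom, and 0 had an unadjusted p under 0.05 with edgeR. Plxnb2 stood at 206, 482, 284 and 179 CPM in vehicle and 209, 193, 222 and 233 CPM in colchicine libraries (-0.43 ± 0.29, adjusted p = 0.277). Plxnb1, a receptor of Sema4d, stood at 12.1, 33.1, 39.1 and 26.9 CPM against 41.8, 43, 45.5 and 42 CPM (0.63 ± 0.30, adjusted p = 0.126). Its groups did not overlap, and vehicle 1 was far below the other libraries. Plxnb3 had 0.563 ± 0.297 and 0.573 ± 0.156 CPM. Plxna4 did not pass without colchicine 2 (0.91, adjusted p = 0.0522), nor Plxnd1 without colchicine 1, 2 or 3 (-1.12 to -1.05, adjusted p of 0.0648 to 0.0683). On log2(TPM + 1) values, where the median change of all genes was 0.35, Plxnd1 (-0.58, adjusted p = 0.325) and Plxnc1 (-0.66, adjusted p = 0.135) did not pass.

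**Figure D3:**
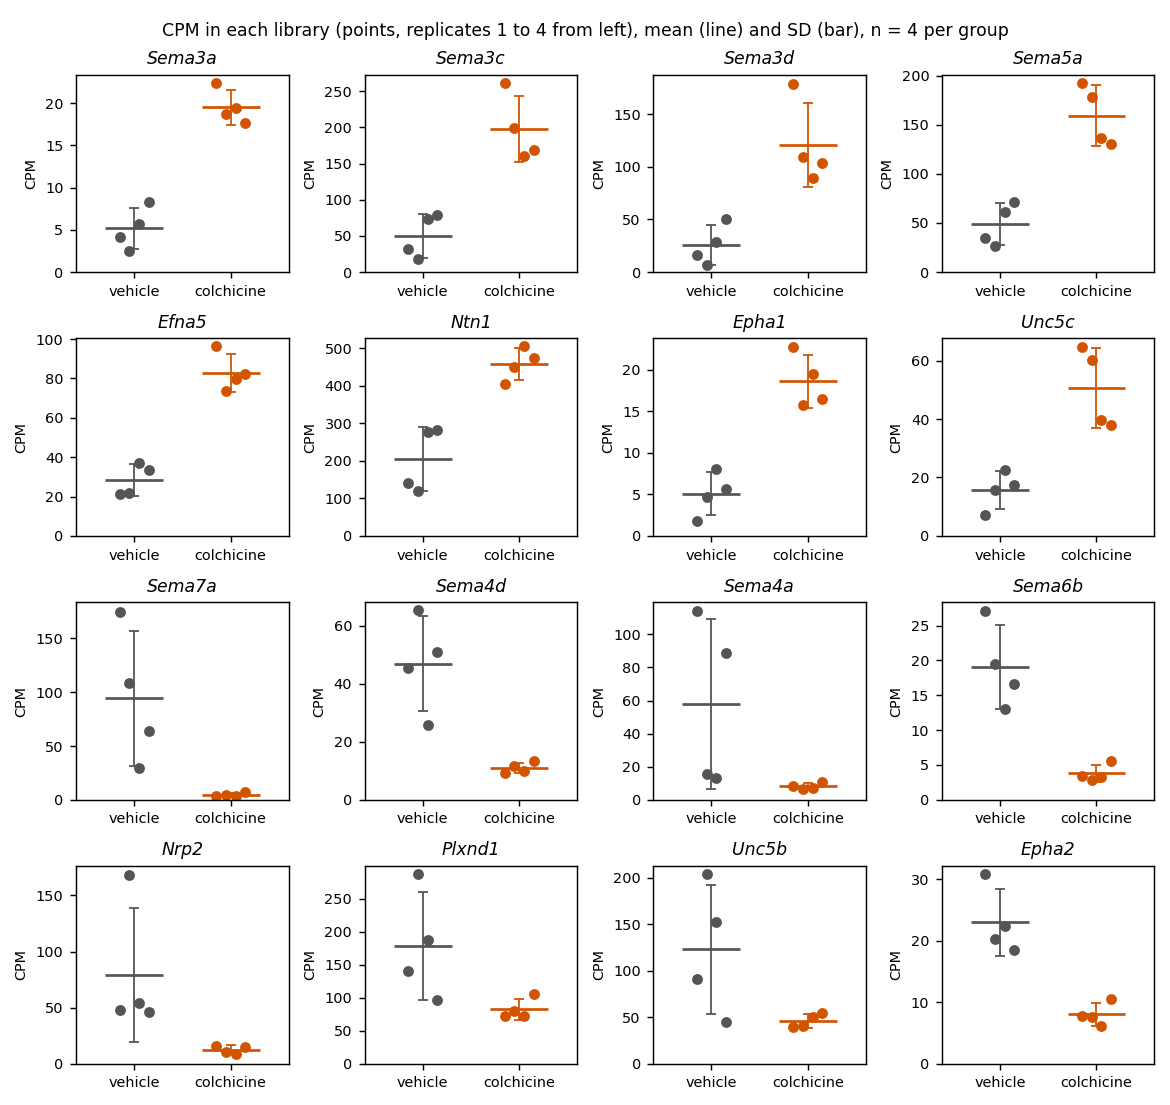
CPM of selected members in each library (points), with the mean (line) and SD (bar) of the 4 libraries of a group. Sema7a lies between 29.8 and 175 CPM in vehicle and between 4 and 7.07 CPM in colchicine libraries, while Ntn1 lies between 121 and 282 CPM and between 404 and 507 CPM.

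Sema7a had the largest change of the 57 tested members. It is anchored by lipid, binds integrins and plexin-C1, and acts on monocytes and T cells (chromosome 9, 57940112 to 57962865). It stood at 175, 109, 29.8 and 64.4 CPM in vehicle and 4.02, 4.65, 4 and 7.07 CPM in colchicine libraries (-4.26 ± 0.53, adjusted p = 0.0039). The lowest vehicle library, vehicle 3, was still above the highest colchicine library. Without vehicle 1 and 4 the log2 change was -3.80, adjusted p = 0.00577. Of its receptors Plxnc1 fell, while the integrin subunits Itga1 (1.05 ± 0.22, adjusted p = 0.00922) and Itgb1 (0.63 ± 0.22, adjusted p = 0.0493) rose.

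Class 4 semaphorins fell in 3 of 5 tested cases and rose in 0, with a median log2 change of -0.95. Sema4d, a ligand of class B plexins and of the leukocyte protein CD72, stood at 45.6, 65.3, 25.8 and 51 CPM against 9.29, 11.6, 10 and 13.3 CPM (-2.09 ± 0.27, adjusted p = 0.00406). The groups did not overlap. Sema4a, which co-stimulates T cells, stood at 114, 15.6, 13.5 and 88.9 CPM against 8.38, 6.43, 7.16 and 10.9 CPM (-2.81 ± 0.69, adjusted p = 0.016). Its high values were those of vehicle 1 and 4, where haemoglobin and neutrophil transcripts were also high, and without them the change was -0.82, adjusted p = 0.0268. Its adjusted p was 0.0506 when colchicine 1 was left out and 0.0532 when colchicine 2 was, and limma-voom gave no call (-2.21, adjusted p = 0.0644). Sema4b stood at 10.6, 18.3, 11.3 and 14 CPM against 8.78, 6.89, 5.72 and 6.63 CPM (-0.95 ± 0.22, adjusted p = 0.0141), without overlap. Sema4c (-0.45 ± 0.17, adjusted p = 0.0637) passed with DESeq2 (-0.46, adjusted p = 0.0337) and without vehicle 4 (-0.56, adjusted p = 0.0274), and Sema4g stood at 0.16 ± 0.50, adjusted p = 0.812. Sema4f, left out by the filter, had 0.587 to 1.70 CPM in vehicle and 0.0574 to 0.499 CPM in colchicine libraries. It passed where the count minimum of 40 was the only filter (-2.22, adjusted p = 0.0377), without vehicle 1 or colchicine 3, and without vehicle 1 and 4. It did not pass without colchicine 1, 2 or 4 (-2.03 to -1.93, adjusted p of 0.0851 to 0.0903).

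Class 6 semaphorins, transmembrane ligands of class A plexins, fell in 3 of 4 cases, where 17.0% of all tested genes fell. Sema6b stood at 27.1, 19.5, 13 and 16.6 CPM against 3.45, 2.87, 3.22 and 5.59 CPM (-2.33 ± 0.30, adjusted p = 0.00402). Every colchicine library lay below every vehicle library. Sema6a had 14.6 ± 3.15 and 7.17 ± 1.84 CPM (-1.03 ± 0.24, adjusted p = 0.0138). Sema6d, a cue in heart development, had 26.3 ± 4.04 and 18.1 ± 3.32 CPM (-0.54 ± 0.17, adjusted p = 0.0386), with colchicine 4 above vehicle 2. It did not pass without vehicle 4 or colchicine 1, 2 or 3 (-0.53 to -0.48, adjusted p of 0.0611 to 0.1) or without vehicle 1 and 4 (-0.34, adjusted p = 0.153). Sema6c stood at 0.29 ± 0.35, adjusted p = 0.527. In class 5, Sema5a, which is known both to attract and to repel axons, stood at 35.2, 27, 61.7 and 71.3 CPM against 193, 178, 137 and 130 CPM (1.71 ± 0.31, adjusted p = 0.00688). No library overlapped, and vehicle 1 and 2 were again the lowest. Sema5b had 0.838 ± 0.714 and 1.36 ± 0.325 CPM (0.68 ± 0.53, adjusted p = 0.333) and passed without vehicle 3 (1.44, adjusted p = 0.0285). On log2(TPM + 1) values, where the median change of all genes was 0.35, Sema4b, Sema6a and Sema6d did not pass (-0.45, -0.35 and -0.10, adjusted p = 0.329, 0.35 and 0.785).

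Ephrins, the membrane-bound ligands of Eph receptors, rose in 2 and fell in 2 of 7 tested cases. That was 57.1%, where 34.4% of all tested genes passed. Efna5 (chromosome 17, 62604184 to 62881317) stood at 21.3, 21.8, 36.8 and 33.5 CPM in vehicle and 96.5, 73.8, 79.5 and 82 CPM in colchicine libraries. The groups were well apart (1.55 ± 0.21, adjusted p = 0.00411). Efna4 stood at 2.79, 5.10, 3.31 and 1.41 CPM against 1.30, 1.15, 0.943 and 1.26 CPM (-1.44 ± 0.39, adjusted p = 0.0224), and its lowest vehicle library, vehicle 4, was close to colchicine 1. Efna3 (-1.22 ± 0.48, adjusted p = 0.0768), Efna1, which tumour necrosis factor induces in endothelium (-0.66 ± 0.24, adjusted p = 0.0628), and Efna2 (-0.13 ± 0.32, adjusted p = 0.77) did not pass. Efna1, Efna3 and Efna4 lie within 0.0663 Mb of chromosome 3 (89271733 to 89338028). Efna3 and Efna4 each share exonic bases with a different untested gene on the opposite strand. Ephb1, Ephb4, Ntn3, Plxna1, Plxna4, Plxnb1, Sema4c and Unc5c also share bases with an untested gene there. On the same strand Nrp1, Plxnc1 and Sema4a share bases with an untested gene, and Ntn3 with Tbc1d24 (-0.30, adjusted p = 0.401). Whether counting used strand is not given in the sources used here.

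Efnb2, the arterial ephrin, stood at 62, 57.3, 78.7 and 63.2 CPM in vehicle and 113, 95.2, 79 and 102 CPM in colchicine libraries (0.58 ± 0.16, adjusted p = 0.0226). The lowest colchicine library, colchicine 3, lay just above vehicle 3. Efnb1, found on fibroblasts, smooth muscle and T cells, stood at 38.9, 63.2, 28.5 and 12.3 CPM against 6.80, 8.95, 8.66 and 12.8 CPM (-1.94 ± 0.44, adjusted p = 0.0124). Vehicle 4 lay below colchicine 4. Efnb3, left out by the filter, had 0.307 to 1.10 CPM in vehicle and 0.283 to 0.444 CPM in colchicine libraries. Where the count minimum of 40 was the only filter it did not pass (-1.06, adjusted p = 0.112), nor without colchicine 1, 2 or 4 (-1.05 to -0.98, adjusted p of 0.178 to 0.203). It passed without vehicle 4 (-1.30, adjusted p = 0.0415). Efnb2 did not pass without vehicle 1 or colchicine 1, 2 or 4 (0.45 to 0.55, adjusted p of 0.0617 to 0.0757), nor Efna4 without colchicine 1, 2 or 3 (-1.50 to -1.34, adjusted p of 0.052 to 0.0602). Efna1 passed with DESeq2 (-0.67, adjusted p = 0.0317) and without vehicle 4 (-0.85, adjusted p = 0.0115). Efnb1 did not pass on log2(TPM + 1) values (-1.22, adjusted p = 0.0736), where the median change of all genes was 0.35.

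Eph receptors, the largest family of receptor tyrosine kinases, rose in 2 and fell in 1 of 10 cases. That was 30.0%, where 34.4% of all tested genes passed. Epha2, a receptor of ephrin-A1, stood at 30.9, 20.3, 22.4 and 18.5 CPM in vehicle and 7.81, 7.63, 6.10 and 10.6 CPM in colchicine libraries (-1.52 ± 0.22, adjusted p = 0.00451), without overlap. Epha4, which binds ephrins of both classes, stood at 3.67, 5.98, 8.05 and 5.78 CPM against 12.7, 15, 9.27 and 13.5 CPM (1.10 ± 0.26, adjusted p = 0.0139). Colchicine 3 was close to vehicle 3, and the call was lost without colchicine 2 (0.97, adjusted p = 0.0548). Epha1 stood at 1.83, 4.72, 8.05 and 5.65 CPM against 22.7, 15.7, 19.5 and 16.5 CPM (1.87 ± 0.37, adjusted p = 0.00846), without overlap. Its exons share bases with Zyx, a focal adhesion gene on the opposite strand with a mean log2 CPM of 9.47 and a rise of 0.91 (adjusted p = 0.0079), so without strand the reads of both genes cannot be told apart there and the Epha1 value is uncertain. Epha3 stood at 28.8, 112, 43.6 and 20.3 CPM against 88.6, 70.9, 59.4 and 69.9 CPM (0.49 ± 0.47, adjusted p = 0.424) and passed without vehicle 2 (1.22, adjusted p = 0.0149). Epha7 had 4.40 ± 1.53 and 3.65 ± 0.875 CPM (-0.27 ± 0.32, adjusted p = 0.516).

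Of the 5 EphB receptors 0 passed with edgeR on all 8 libraries (adjusted p of 0.127 to 0.291; 0 at an unadjusted p under 0.05, and 0 with DESeq2 or limma-voom). Ephb4, the venous receptor of ephrin-B2, stood at 115, 108, 109 and 79.8 CPM in vehicle and 84.1, 85.9, 76 and 87.3 CPM in colchicine libraries (-0.30 ± 0.14, adjusted p = 0.127). Ephb2 had 31.5 ± 18.9 and 20.4 ± 6.46 CPM (-0.63 ± 0.41, adjusted p = 0.252) and Ephb3 31.2 ± 17.9 and 20.6 ± 2.47 CPM (-0.60 ± 0.39, adjusted p = 0.247). Vehicle 4 was the lowest vehicle library of all 3. Ephb1 (0.72 ± 0.49, adjusted p = 0.263) and Ephb6 (0.47 ± 0.34, adjusted p = 0.291) stood above 0. Without vehicle 4 Ephb3 (-0.89, adjusted p = 0.0235) and Ephb4 (-0.42, adjusted p = 0.0269) passed, and without vehicle 1 and 4 Ephb2 passed too (-1.12, adjusted p = 0.0338). On log2(TPM + 1) values Ephb3 and Ephb4 stood above 0, at 0.01 and 0.14, where the median change of all genes was 0.35.

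Of the Slits, secreted glycoproteins that bind Robo, Slit3 rose and Slit2 did not pass. Slit3, known to act on endothelium, stood at 117, 80.3, 256 and 117 CPM in vehicle and 231, 282, 329 and 298 CPM in colchicine libraries (1.00 ± 0.33, adjusted p = 0.0448). Vehicle 3 lay above colchicine 1, and the call was lost without any 1 library other than vehicle 3 (0.80 to 1.07, adjusted p of 0.0759 to 0.118) and without vehicle 1 and 4 (0.77, adjusted p = 0.176). Slit2, known to restrain leukocyte migration, stood at 27.2, 98.7, 37.8 and 4.55 CPM against 18.9, 16.5, 13.4 and 16.1 CPM (-1.38 ± 0.68, adjusted p = 0.142). Its vehicle libraries lay on both sides of the colchicine libraries, and it passed without vehicle 4 (-1.77, adjusted p = 0.0128). Robo1, a receptor of both, stood at 7.04, 17.4, 11 and 4.61 CPM against 13.5, 9.12, 8.77 and 15.3 CPM (0.22 ± 0.39, adjusted p = 0.683), with overlapping groups. Robo2, left out by the filter, had 0.123 to 1.39 CPM in vehicle and 0.170 to 0.493 CPM in colchicine libraries. Where the count minimum of 40 was the only filter it did not pass (-1.53, adjusted p = 0.1), nor without any 1 colchicine library (-1.90 to -1.35, adjusted p of 0.093 to 0.198). It passed without vehicle 4 (-1.89, adjusted p = 0.0148) and without vehicle 1 and 4 (-1.69, adjusted p = 0.0338). Robo4, an endothelial relative outside the symbol rule, fell (-3.60 ± 0.36, adjusted p = 0.00388). Of the 12 endothelial markers Kdr (-2.82 ± 0.34, adjusted p = 0.00388), Flt1 (-1.22 ± 0.27, adjusted p = 0.0109) and Cdh5 (-0.83 ± 0.23, adjusted p = 0.0256) fell. Pecam1 (0.95 ± 0.24, adjusted p = 0.0176), Vwf (1.18 ± 0.29, adjusted p = 0.0155), Tek (1.01 ± 0.26, adjusted p = 0.0183) and Ptprb (1.43 ± 0.27, adjusted p = 0.00759) rose, and the others did not pass.

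Ntn1 (chromosome 11, 68209364 to 68400823), which encodes the secreted netrin-1, stood at 142, 121, 277 and 282 CPM in vehicle and 404, 450, 507 and 474 CPM in colchicine libraries. No library overlapped, vehicle 1 and 2 were the lowest, and it rose (1.16 ± 0.29, adjusted p = 0.0175). Ntn4, a netrin of basement membranes, stood at 41.1, 30.7, 43.9 and 26.3 CPM against 35.4, 57, 62.5 and 69.4 CPM (0.66 ± 0.24, adjusted p = 0.0585), and Ntn3 had 6 ± 3.94 and 3.63 ± 1.39 CPM (-0.73 ± 0.51, adjusted p = 0.286). The UNC5 receptors of netrins differed in direction. Unc5b, the vascular netrin receptor, stood at 90.8, 204, 152 and 45.2 CPM against 39.8, 40.1, 50.7 and 54.9 CPM (-1.41 ± 0.40, adjusted p = 0.0265). Vehicle 4 lay within the colchicine range. Unc5c, a receptor first described for its part in the cerebellum, stood at 7.26, 15.6, 22.7 and 17.5 CPM against 64.7, 60.2, 39.7 and 38 CPM (1.68 ± 0.33, adjusted p = 0.00827), with no overlap.

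Unc5d stood at 0, 0.439, 1.21 and 1.78 CPM against 4.76, 4.02, 4.49 and 3.51 CPM (2.26 ± 0.72, adjusted p = 0.0381). Vehicle 1 had 0 counts (floor 0.22 CPM), and the fitted change depends on how that 0 is treated. It did not pass without vehicle 2, vehicle 3 or any 1 colchicine library (2.04 to 2.41, adjusted p of 0.0576 to 0.0984). Unc5a, at 1.23 to 4.01 CPM in vehicle and 0.459 to 1.31 CPM in colchicine libraries, did not pass (-1.40 ± 0.50, adjusted p = 0.0565), though it did with DESeq2 (-1.42, adjusted p = 0.0285), without vehicle 4 (-1.59, adjusted p = 0.0417) and without vehicle 1 and 4 (-1.77, adjusted p = 0.0401). It shares exonic bases with Hk3, a hexokinase gene on the opposite strand with a log2 change of -3.45 (adjusted p = 0.00569). Unc5b did not pass without vehicle 2 or colchicine 1, 2 or 3 (-1.45 to -1.05, adjusted p of 0.0548 to 0.0723) or on log2(TPM + 1) values (-0.76, adjusted p = 0.279). Ntn1 did not pass without colchicine 2 or 4 (1.11 to 1.13, adjusted p of 0.0549 to 0.0591), and Ntn4 passed with DESeq2 (0.65, adjusted p = 0.0374), without colchicine 1 (0.81, adjusted p = 0.0314) and on log2(TPM + 1) values (1.02, adjusted p = 0.0391). The median change of all genes on log2(TPM + 1) values was 0.35.

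Other genes of the pathway were taken from 5 lists of co-receptors, partners and effectors. Of 82 tested, 13 rose (15.9%, against 17.4% of all genes) and 17 fell (20.7%, against 17.0%), and the median log2 change was -0.07. Among netrin and RGM co-receptors and ligands 2 of 5 rose, Ntng1 (1.87 ± 0.45, adjusted p = 0.0156) and Rgmb (0.65 ± 0.10, adjusted p = 0.00507), and 0 fell. Among other Robo, Slit and FLRT partners 1 of 13 rose, the syndecan gene Sdc2 (0.80 ± 0.17, adjusted p = 0.0105), and 4 fell, led by Robo4, Sdc3 (-2.21 ± 0.44, adjusted p = 0.00856) and Sdc1 (-1.65 ± 0.38, adjusted p = 0.0132). Semaphorin co-receptors and plexin effectors rose in 5 and fell in 6 of 24 cases. Those raised most were Arhgef12 (1.22 ± 0.24, adjusted p = 0.00776), an exchange factor for RhoA bound by class B plexins, the integrin gene Itga1, and Mical2 (0.85 ± 0.20, adjusted p = 0.0138), a monooxygenase that takes actin filaments apart. Those lowered most were Cd72, the Sema4d receptor of B cells (-3.56 ± 0.65, adjusted p = 0.00665), the adhesion molecule Chl1 (-2.98 ± 0.32, adjusted p = 0.00388) and the kinase Fes, abundant in myeloid cells (-2.23 ± 0.33, adjusted p = 0.00446).

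Ephrin and Eph effectors rose in 1 of 22 cases, the Ras GTPase-activating protein Rasa1 (0.78 ± 0.15, adjusted p = 0.00812), and fell in 1, the exchange factor Arhgef19 (-1.01 ± 0.29, adjusted p = 0.0259). Shared growth cone signalling genes rose in 4 and fell in 6 of 18 cases. The actin regulators Enah (1.78 ± 0.31, adjusted p = 0.00617) and Ablim1 (1.28 ± 0.20, adjusted p = 0.00507) and the exchange factor Trio (1.00 ± 0.20, adjusted p = 0.00912) rose most. Ablim3 (-1.72 ± 0.34, adjusted p = 0.00817), the kinase Pak1 (-1.70 ± 0.37, adjusted p = 0.0111) and Evl (-1.03 ± 0.27, adjusted p = 0.0199), a relative of Enah, fell most.

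Levels per length ordered the members by how much RNA they supplied. In colchicine libraries the highest mean levels were those of Ntn1 (184 ± 14.2 TPM), Sema3f (167 ± 13.8 TPM), Slit3 (123 ± 15 TPM), Sema3c (81.5 ± 20.9 TPM) and Plxnb2 (74.5 ± 7.71 TPM). Among these, the ranges of each pair of neighbours overlapped, except Sema3f and Slit3. In vehicle libraries the highest were Sema3f (95.4 ± 39.9 TPM), Plxnb2 (83.4 ± 55.9 TPM), Ntn1 (67.5 ± 39.1 TPM), Slit3 (50.9 ± 40.4 TPM) and Plxnd1 (48.3 ± 31.9 TPM), all with overlapping ranges. Sema7a went from rank 6 of 60 in vehicle (44.9 ± 22.5 TPM) to rank 43 (3.40 ± 1.11 TPM), and Nrp2 from rank 14 to 39. Sema3c went from rank 21 to 4, Sema3d from 30 to 10 and Sema3a from 49 to 27. Class 3 semaphorins together summed to 67.5, 148, 237 and 170 TPM in vehicle and 331 to 395 TPM in colchicine libraries. Class 4 semaphorins summed to 51.3 to 90.4 TPM in vehicle and 26.2 to 37.4 TPM in colchicine libraries. TPM share a fixed total, and erythroid markers alone took 311000 and 165000 TPM in vehicle 1 and 4, against 1410 to 10900 TPM in the other libraries, so that TPM of all other genes are lower there. By role, 9 of 31 tested ligands rose and 9 fell (58.1%), and 6 of 26 tested receptors rose and 5 fell (42.3%). Of all tested genes 34.4% passed.

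**Figure D4:**
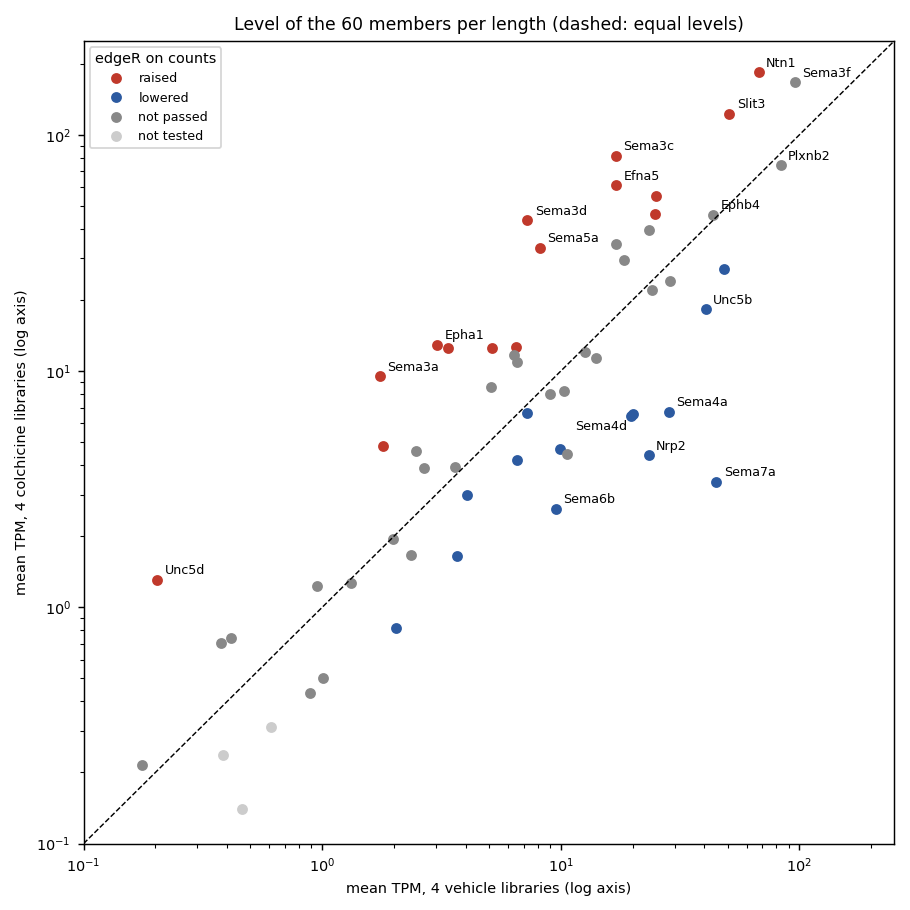
Mean TPM of each of the 60 members over the 4 vehicle and the 4 colchicine libraries, on log axes, coloured by the result of the test on counts, with equal levels on the line. Ntn1, Sema3f and Slit3 hold the highest levels in colchicine libraries, and Sema7a goes from 44.9 to 3.40 TPM.

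Vehicle libraries varied more than colchicine libraries. The median SD of log2(CPM + 0.5) over the tested members was 0.642 in vehicle and 0.24 in colchicine libraries, against 0.374 and 0.174 over all tested genes, and 51 of 57 members (89.5%, all genes 86.2%) varied more in vehicle. The raised and the lowered members stood in different orders over the vehicle libraries. Of the 15 raised members 7 were lowest in vehicle 1 and 7 in vehicle 2, and they were highest in vehicle 3 (9 members) or vehicle 4 (6 members). The 14 lowered members were highest in vehicle 1 (6 members) or vehicle 2 (8 members), and 7 of the 14 were lowest in vehicle 4. Vehicle 4 was lowest for 28 of all 57 tested members (49.1%, against 24.8% of all genes). Over all tested genes vehicle 1 was lowest for 25.3% and vehicle 2 for 28.4%. Vehicle 1 was highest for 33.5%, vehicle 2 for 25.8%, vehicle 3 for 20.2% and vehicle 4 for 20.5%. The order over all raised or all lowered genes was not examined, so it is not known whether these orders are particular to the members. Smooth muscle markers were also lowest in vehicle 1 and 2, and their part in the result was not tested.

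Without vehicle 1 and 4, 14 members rose and 25 fell of 59 tested, where 40.5% of all genes passed. Sema6d was the single member of the 14 lowered ones that did not pass then, and of the 15 raised ones Efnb2 (0.52, adjusted p = 0.0607) and Slit3 did not. Falls that passed there included Slit2 (-2.07, adjusted p = 0.00752), Plxnb2 (-0.83, adjusted p = 0.02), Plxna3 (-0.72, adjusted p = 0.0333), Ntn3 (-1.33, adjusted p = 0.0303) and Efna1 (-0.69, adjusted p = 0.0183), and Sema3e rose (0.96, adjusted p = 0.045).

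**Figure D5:**
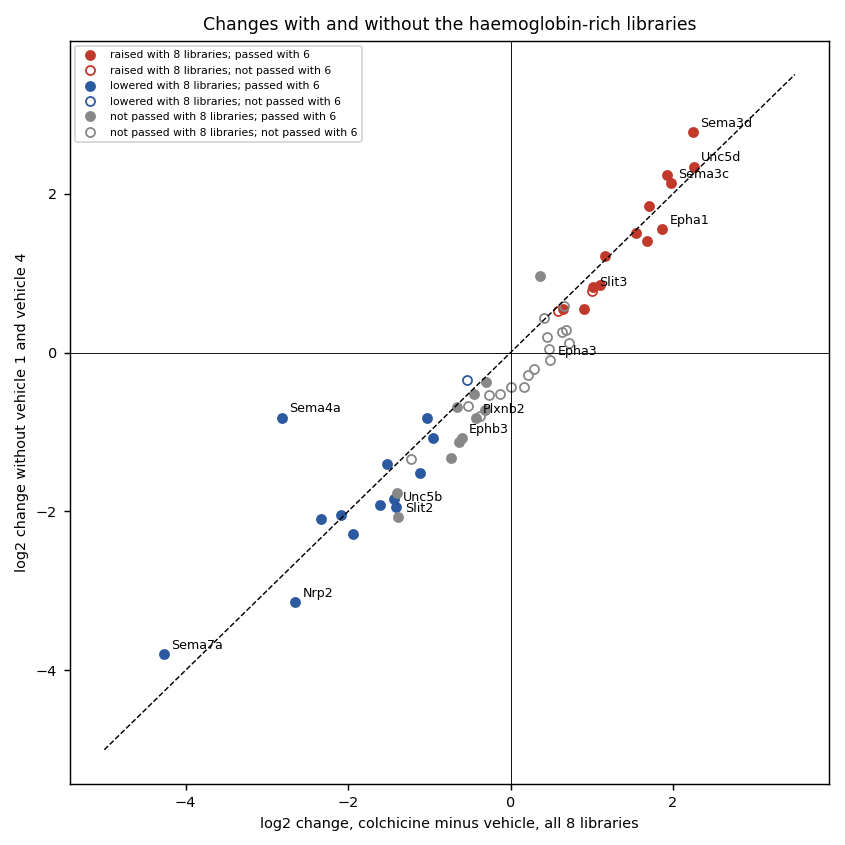
Log2 change of the tested members with all 8 libraries (x) and without vehicle 1 and 4 (y), coloured by the result with 8 libraries and filled where the member passed with 6, with equal changes on the dashed line. Sema4a goes from -2.81 to -0.82 and Slit2 from -1.38 to -2.07.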

How the data were processed

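RNA of aortas was measured by sequencing in 8 libraries, 4 per group. The deposited table gives, per its headers, an estimated count and a TPM value (transcripts per 1000000) for each gene and library, as the authors made them. The build is mm10, per the submitters' processing notes, while neither the aligner and counter nor the strand setting is given in the sources used here. Estimated counts (8.7% are not whole) were rounded. Of 22063 genes 4498 had no count, 30 had no symbol and 8632 were left out by the low-count filter of edgeR (filterByExpr). The remaining 13431 were fitted with edgeR 4.0.16 in R 4.3.3 (TMM factors, quasi-likelihood F-test, two-sided, adjusted p under 0.05), and standard errors are the log2 change divided by the square root of F. The test was checked on simulated data. CPM are counts per 1000000 after TMM scaling, and TPM were used to compare levels between genes. Libraries with 15427898 to 18460006 counts have a floor of 3 counts, which covers counting error only. No libraries agreed within sampling noise. Positions come from GENCODE M21, in which 99.6% of identifiers were found.

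Members and lists were chosen with earlier results of these data known. Named with every library's value were up to 3 members per family with the largest change that passed and a mean log2 CPM of at least 1 (where none passed, the smallest p), plus a fixed set of members such as Nrp1, Ephb4 and Slit2, and of each pathway list up to 3 raised and 3 lowered genes. Alternatives were DESeq2 1.42.0, limma 3.58.1 (voom, and log2 of TPM plus 1 or 0.1), other scalings, filters and thresholds, a replicate block and leaving out libraries. Replicate numbers in the titles were not shown to pair the libraries.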

Additional observations from a re-analysis of the deposited data

Results flagged for a closer look

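In 4 of 120 combinations of member and group 1 library stood apart from the other 3, where chance alone gives about 1 in 20. Nrp2 was at 168 CPM in vehicle 2 and 46.5 to 53.7 CPM in the other vehicle libraries, and Plxnc1 at 13.3 CPM in vehicle 2 and 5.84 to 6.73 CPM in the others. Vehicle 2 also had the highest macrophage marker level (7330 TPM), whose part was not tested. Sema4f was at 0.499 CPM in colchicine 3 and 0.0574 to 0.113 CPM in the other colchicine libraries, the latter under the floor of 3 counts. Sema6d was at 23.1 CPM in colchicine 4 and 16.0 to 16.6 CPM in the other colchicine libraries.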

How the results depend on the processing

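The 29 calls kept their direction under every alternative. Efna5, Epha1, Epha2, Nrp2, Sema3a, Sema3c, Sema4d, Sema5a, Sema6b, Sema7a and Unc5c also kept their call under all alternatives that refit the test. All alternatives start from the same deposited values, so they cannot show whether Epha1 holds reads of Zyx. With 1 library left out, 8 to 16 of 57 to 60 tested members rose and 9 to 22 fell. Of all genes 16.2% to 37.3% passed (898 to 2420 rose and 1309 to 2642 fell). Of the other pathway genes 8 to 13 rose and 12 to 20 fell. Rises were fewest without colchicine 2, and falls of members were most (22) without vehicle 4. Without vehicle 1 and 4, 25 members fell. Without TMM factors 13 members rose and 12 fell, where 28.0% of all genes passed. The calls lost there were Plxnd1, Sema3b, Sema6d, Slit3 and Unc5d (adjusted p of 0.0524 to 0.11). With the replicate block 12 members rose and 9 fell. Of all genes 17.2% passed with it (1121 rose and 1184 fell), and 9 other pathway genes fell. The calls lost with it were Efna4, Efnb1, Efnb2, Plxna2, Plxnd1, Sema6d, Unc5b and Unc5d (adjusted p of 0.0505 to 0.0847). The replicate numbers were not shown to pair the libraries (correlations of deviations of -0.247 to 0.032, and 0 of 4 vehicle libraries correlated best with its own number). So few libraries cannot exclude a pairing. On log2(TPM + 1) 6 members, 863 of all genes and 5 other pathway genes fell, and on log2(TPM + 0.1) 6, 867 and 6. Of all genes 24.4% and 22.8% passed on these values. Rises were then 73.1% and 71.1% of calls over all genes, against 50.7% on counts, and the median log2 change of all genes was 0.35 and 0.40, against -0.03. At an adjusted p under 0.01, 5 of 57 tested members rose and 5 fell. Of all genes 10.5% passed (603 rose and 801 fell), and of the other pathway genes 7 rose and 7 fell.

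Members that had not passed changed sign as follows, and the cause was not tested. On log2(TPM + 1) these were Efna2 0.23, Epha7 0.01, Ephb3 0.01, Ephb4 0.14, Plxna1 0.15, Plxna3 0.09, Plxnb2 0.09, and on log2(TPM + 0.1) Efna2 0.33, Epha7 0.07, Ephb3 0.03, Ephb4 0.15, Plxna1 0.17, Plxna3 0.21, Plxnb2 0.10. Without vehicle 1 and 4 they were Epha3 -0.10, Plxnb3 -0.43, Robo1 -0.28, Sema4g -0.43, Sema6c -0.21. Plxnb3 stood at -0.0013 with RLE factors and -0.01 without haemoglobin and mitochondrial genes in the totals. With 1 library left out the ranges were Efna2 -0.36 to 0.14, Plxna1 -0.62 to 0.11, Plxna3 -0.55 to 0.01, Plxnb3 -0.29 to 0.31, Robo1 -0.04 to 0.62, Sema4g -0.20 to 0.51, Sema6c -0.05 to 0.55. A count of 0 allows up to 0.22 CPM, which limits the members with few counts.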
